A study of Homo sapiens with 131 samples.

Results

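The proteasome is the large protease that takes apart proteins tagged with ubiquitin. Its barrel-shaped 20S core is built from α subunits, which gate the barrel, and β subunits, some of which cut the substrate. The 19S regulatory particle binds the ubiquitin chain, unfolds the substrate with a ring of ATPases and removes the chain. Immune cells, and cells treated with interferon, exchange the cutting subunits for inducible ones. Dividing cells depend on the proteasome to clear cyclins and other cell-cycle proteins. The genes described here are all those whose symbol is PSM with a letter from A to G and a number, together with POMP, with pseudogenes left out. They are 49 of the 60708 genes in the expression table, and 35 of them had a copy state, against 45404 of all genes.

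The cells were HAP1, a near-haploid human line derived from a chronic myeloid leukaemia, in which most genes have 1 copy before replication and 2 after it. They were untreated cells sorted singly from mid-S phase, and scRR-seq read the DNA and the total RNA of the same cell. The labels gave 63 mid-S cells with an RNA and a DNA library, and the tables hold 56 of them, from 1 experiment on 1 line. Libraries from 5 G1 cells served the study as the unreplicated reference, and there was no treatment. Spliced RNA is given as TPM, which scales counts by gene length and to the same total in every cell.

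HAP1 carries the BCR-ABL1 fusion, and BCR was above 0 in 53 cells and ABL1 in 49. MPO, SPI1 and CD3E of the blood cell list were listed at 0 in every cell, and the 6 genes of that list together reached at most 58.65 TPM. The 6 genes of the S-phase list summed to between 845.2 and 3087 TPM. The replication score, the percent of called bins that had been replicated, ran from 39.7 to 67.2% (median 54.1%). Cells numbered up to 65 (the first set, 29 cells) and later ones (the second set, 27 cells) differed in their libraries, although the labels give no batch. The mitochondrial share of TPM was 4.98 to 18.3% in the first set and 2.57 to 5.55% in the second, and the unspliced counts summed to 557035 to 1353931 and 425181 to 712073. The median score was 50.5% in the first set and 56.6% in the second, so part of any trend with the score cannot be told apart from the sets.

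Proteasome RNA was abundant and present in nearly every cell. The 49 genes summed to between 4812 and 9698 TPM per cell, with a median of 7316 TPM, or 0.732% of the total. The sum was 6998 ± 1228 TPM in the first set (SD, n = 29 cells) and 7597 ± 657 TPM in the second (SD, n = 27 cells), and these ranges overlapped widely. Of the 49 genes, 43 were above 0 in over 90% of cells, and their median level was 122.9 TPM. The 7767 genes that met the same condition had a median of 39.8 TPM. The 6 others were PSMA8, PSMB8, PSMB9, PSMB10, PSMB11 and PSMD5.

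Core genes stood above regulatory genes. The 14 constitutive genes of the 20S core had a median level of 256.8 TPM, and the 17 subunit genes of the 19S particle had 104.1 TPM. In each cell the median of the core genes was 1.51 to 4.04 times that of the 19S genes (median 2.41), and it was higher in 56 of 56 cells. 9 of the 14 core genes lay above the highest 19S gene. The core genes are also shorter, with a median exonic length of 2634.5 bp against 4960 bp. When TPM was multiplied back by exonic length, which approximates reads, the ratio per cell fell to between 0.719 and 2.03 (median 1.16), and the core was higher in 49 of 56 cells. The order therefore held per length in every cell and less widely in reads. Over the 31 genes the level and the exonic length had a Spearman's rho of -0.40, but within the core it was 0.34 and within the 19S particle -0.42.

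**Figure D1:**
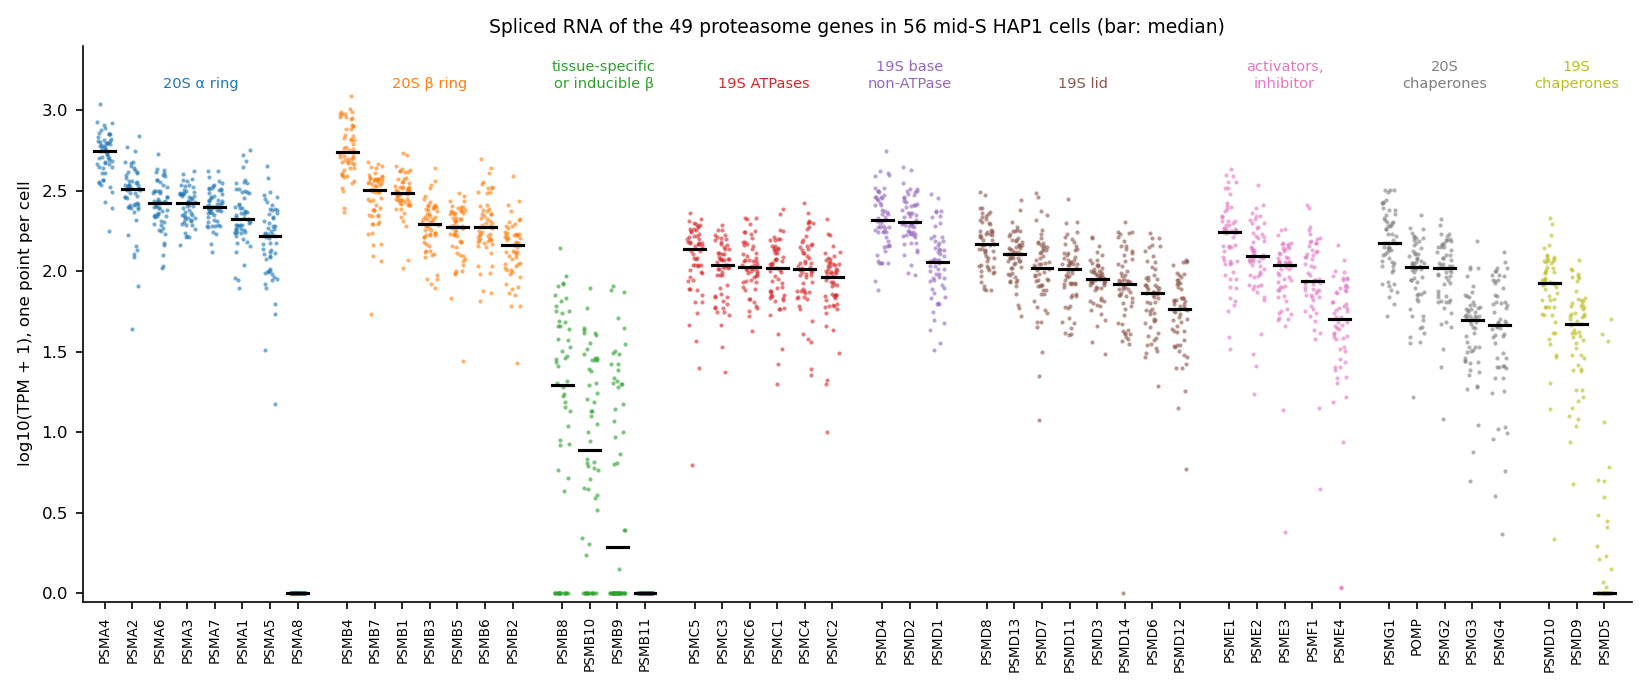
Spliced RNA of the 49 proteasome genes as log10(TPM + 1), with 1 point per cell (56 cells), a bar at the median and genes grouped by subcomplex. The medians of the 14 constitutive core genes lie mostly above 2.2, those of the 17 subunit genes of the 19S particle lie between 1.7 and 2.4, and PSMA8, PSMB11 and most cells for PSMD5 lie at 0.

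In the α ring, PSMA4 (chr15:78540405-78552417) was the most abundant at 176.5 to 1093 TPM (median 556.0 TPM). PSMA5 was the least abundant of the expressed α genes, at 13.9 to 445.4 TPM (median 163.4 TPM). PSMA3 and PSMA7 were the steadiest of the α genes, with a coefficient of variation (CV, the SD over cells as a percent of the mean) of 24.1% and 24.4%. PSMA8, a copy of the α-ring subunit that is used in the testis, was listed at 0 in all 56 cells. In the β ring, PSMB4 (chr1:151399560-151401937), a structural subunit that does not cut, led at 230.6 to 1219 TPM (median 549.2 TPM). PSMB2 had the lowest level of the ring at 25.96 to 386.9 TPM (median 145.0 TPM). The neighbouring PSMB3, PSMB5 and PSMB6, at 196.2, 187.9 and 187.0 TPM, could not be ordered against their spread over cells.

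The constitutive cutting subunits far exceeded their inducible partners. PSMB5, which carries the chymotrypsin-like site, ran from 26.5 to 304.4 TPM (median 187.9 TPM). Its immunoproteasome partner PSMB8 ran from 0 to 138.3 TPM (median 18.7 TPM) and was above 0 in 41 of 56 cells. PSMB5 was the higher of the pair in 54 of 56 cells. PSMB6, which carries the caspase-like site, ran from 64.4 to 492.8 TPM (median 187.0 TPM), and its partner PSMB9 from 0 to 80.1 TPM (median 0.945 TPM), above 0 in 29 cells. PSMB7, which carries the trypsin-like site, ran from 53 to 473.4 TPM (median 318.8 TPM), and its partner PSMB10 from 0 to 77.6 TPM (median 6.81 TPM), above 0 in 43 cells. In both of these pairs the constitutive gene was higher in all 56 cells. Summed over cells, PSMB8 made up 13.3% of its pair, PSMB9 5.79% and PSMB10 4.67%. PSMB8 and PSMB9 overlap at their ends on opposite strands, and the strand setting of the counting was not known from the sources used. PSMB11, the thymus-specific subunit, was listed at 0 in all 56 cells.

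Medians in the 19S particle ran from 56.9 to 205.2 TPM. The 6 ATPase genes had medians from 90.6 TPM for PSMC2 to 136.7 TPM for PSMC5. Among the base subunits that are not ATPases, PSMD4, a ubiquitin receptor, had the highest median at 205.2 TPM, PSMD2, a scaffold, had 201.6 TPM and PSMD1, also a scaffold, the lowest at 113.6 TPM. In the lid, PSMD8 had the highest median (146.0 TPM) and PSMD12 the lowest (56.9 TPM), while PSMD14, the enzyme that removes the ubiquitin chain, had 81.8 TPM. The table lists 13 pseudogenes named after PSMC1, which together had a median of 54.55 TPM against 103.4 TPM for PSMC1, so its own level is uncertain.

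The genes that activate, inhibit or build the proteasome had medians of 45.5 to 173.4 TPM, PSMD5 aside, so the highest of them overlapped the lower core genes. PSME1 and PSME2, which form the interferon-inducible 11S cap together, had medians of 173.4 and 122.9 TPM. Their levels had a Spearman's rho of 0.04 over 56 cells, 0.37 in the first set and -0.13 in the second, and 0.18 with the mean of the set removed. PSME4, a nuclear activator, was the lowest of the activators at 49.2 TPM. PSMG1, a chaperone of the α ring, was the most abundant builder of the core at 149.0 TPM, and its partner PSMG2 had 103.6 TPM. POMP, which starts β ring assembly, had 104.7 TPM, and PSMG4 had the lowest level of the core builders at 45.5 TPM. Of the 3 chaperones of the 19S base, PSMD10 had the highest median (83.1 TPM) and PSMD9 had 45.9 TPM. PSMD5 (chr9:120815496-120842951) stood apart: it was listed at 0 in most cells and above 0 in 17 of 56, at most at 49.2 TPM. It was above 0 in 9 of 29 cells of the first set and 8 of 27 of the second. PSMD5 was 2-copy in 54 cells and 1-copy in 1, and its unspliced values were above 0 in 35 cells, with a median of 0.200 counts.

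The promoters of the family were searched for elements known in proteasome genes: the core of the antioxidant response element, TGACNNNGC, bound by NFE2L1 and its relatives, and the CCAAT box, bound by NF-Y. RefSeq windows (GRCh38.p14, 250 bases before to 50 after a start site) were given for 43 of the 49 genes. TGACNNNGC was found on either strand in 15 of 43 members, or 34.9%, against 16.1% of 27305 genes with a window. CCAAT was found in 20 of 43 members, or 46.5%, against 39.7% of those genes. The antioxidant core lay before the start in 13 of the 43 members, and in 13.2% of the 27305 genes. The median level was 103.6 TPM for the 15 genes with that core and 104.8 TPM for the 28 without it, so the motif did not separate high from low genes. The 4 highest genes of those 13 are shown, each as 30 bases on the strand of the gene, with the motif in capitals.
PSMA4: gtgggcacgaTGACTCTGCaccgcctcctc
PSMB3: gcctccgtttTGACTTTGCaaccaaactac
PSME1: atggcagggcTGACCCCGCctcctccatcc
PSMG1: gcccagggcaTGACAGCGCgggcgggcggt

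These stretches lie at chr15:78540650-78540679, chr17:38752627-38752656, chr14:24136098-24136127 and chr21:39183615-39183644, PSMG1 on the minus strand and the others on the plus strand. The capitals end 118, 96, 78 and 175 bases before the start. PSMA4 has 3 listed starts, and the window shown belongs to the last of them, inside the span of the gene.

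The median CV of the 43 genes was 42.1%, against 50.5% for the 3189 genes between the lowest and the highest of their medians and 63.2% for all 7767 genes. The 3189 genes were not matched in level: their median was 80.98 TPM, against 122.9 TPM for the proteasome genes, and the part of level in the CV was not tested. The lowest CV belonged to PSMA3 at 24.1%. The highest among these 43 belonged to PSMG4, an assembly chaperone, at 63.3%. In the first set alone the medians were 47.9% for the proteasome genes and 53.3% for the genes in that range, and in the second set alone they were 34.5% and 42.1%. The order of the genes by level was shared, with a rho of 0.93 between the medians of the sets over 43 genes.

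**Figure D2:**
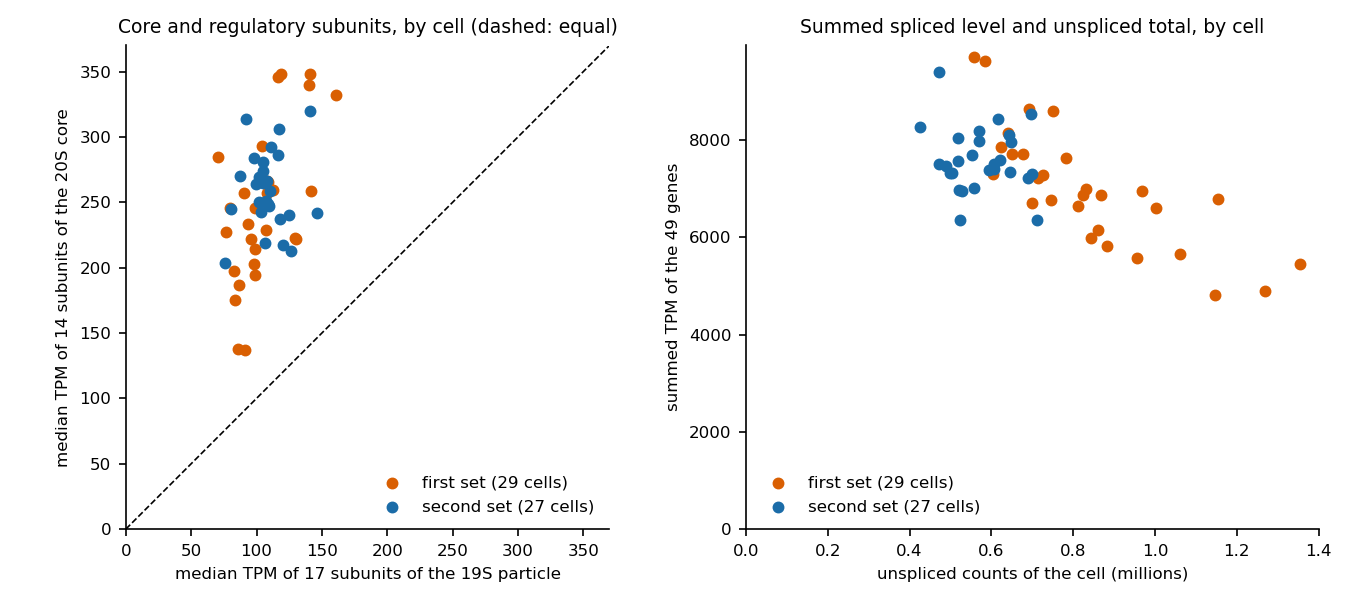
Left, median TPM of 14 core genes against 17 genes of the 19S particle, with 1 point per cell and a dashed line where both are equal; all 56 cells lie above the line. Right, summed TPM of the 49 genes against the unspliced counts of the cell; the 29 cells of the first set (orange) fall with the unspliced total, and the 27 cells of the second set (blue) do so far less.

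The genes rose and fell together only weakly. Over 56 cells the 903 pairs among the 43 genes had a median rho of 0.09, and 70.3% of pairs were above 0. All pairs of the 7767 genes had a median of 0.00. Pairs within the core had a median of 0.20 (91 pairs), pairs within the 19S particle 0.09 (136 pairs) and pairs between them 0.10 (238 pairs). The higher value within the core was seen in the first set (0.21) and was not seen in the second (0.09, against 0.10 within the 19S particle). With the mean of the set removed, PSMB1 and PSMA6 formed the closest pair at 0.53, and this pair had a rho of 0.55 in the first set and 0.50 in the second. PSMB2 and PSMC2 came next at 0.52, with 0.67 in the first set and 0.15 in the second. These values are over cells that share depth and composition, and they carry no test.

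The shared part of the levels moved with the composition of the library in the first set. The summed TPM had a rho of -0.84 with the unspliced total over the 29 cells of the first set and -0.10 over the 27 of the second. Its rho with the mitochondrial share was -0.71 and 0.05. Of the 43 genes, 38 had a rho below 0 with the unspliced total in the first set, with a median of -0.32, against 57.6% of 7767 genes and a median of -0.06. In the second set 20 of 43 were below 0, and the median was 0.04 against 0.02. The part of library composition in the shared levels was not tested.

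The 10 genes whose levels were most like those of the proteasome genes are named here. Likeness was measured as rho with the mean standardised log2(TPM + 1) of the 43 genes, over 56 cells and 7171 genes with a median of at least 10 TPM. The first was PPA1, an inorganic pyrophosphatase, at 0.72, followed by HNRNPC at 0.71 and HNRNPK at 0.71, which bind pre-mRNA. PPIA (a prolyl isomerase) followed at 0.70, LDHB (lactate dehydrogenase) at 0.68, CFL1 (an actin-severing protein) at 0.68, SAE1 (part of the SUMO E1 enzyme) at 0.67, ALDOA (aldolase) at 0.67, ATP5MC3 (ATP synthase) at 0.66 and HMGB1 at 0.66. With the mean of the set removed their rho ran from 0.55 to 0.73, HNRNPC stood first at 0.73 and PPA1 had 0.55. All 10 were closer in the first set (0.66 to 0.89) than in the second (0.25 to 0.58). No gene of the pathway lists was among them, and RPS27A, which encodes ubiquitin fused to a ribosomal protein, had 0.56.

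Most proteasome genes lay in DNA replicated early. A gene was placed by its percent of 2-copy cells among the 55 scored 40 to 70%: early above 7 of 9 equal parts of that range, late in the lowest 2 parts and mid between. Of 33 members with a state and a spliced value above 0 in over 50% of cells, 26 (78.8%) were early, 6 mid and 1 late. Of 10278 such genes in all, 71.5% were early, 20.8% mid and 7.72% late. The other 14 of the 49 members had no state: 6 lie on chromosomes 1, 15 and X, which the authors removed, and the other 8 had no state in the table used here.

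PSMA2 (chr7:42916828-42932185), an α-ring subunit, was the late member: it was 2-copy in 4 cells and 1-copy in 51, or 7.27% replicated. It was nonetheless the second most abundant α gene, at 42.98 to 686.6 TPM (median 320.4 TPM). The mid members were PSMC2 (77.8% replicated, on the limit to early), PSMA1 (70.9%), POMP (63.6%), PSMD14 (36.5%), PSMF1 (36.4%) and PSMD6 (27.3%). These come from different subcomplexes. The other ATPases of the same ring as PSMC2 were all early. PSMC4 was replicated in 85.5% of cells, PSMC1 in 89.1%, PSMC5 in 98.2%, PSMC3 in 100% and PSMC6 in 100%.

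**Figure D3:**
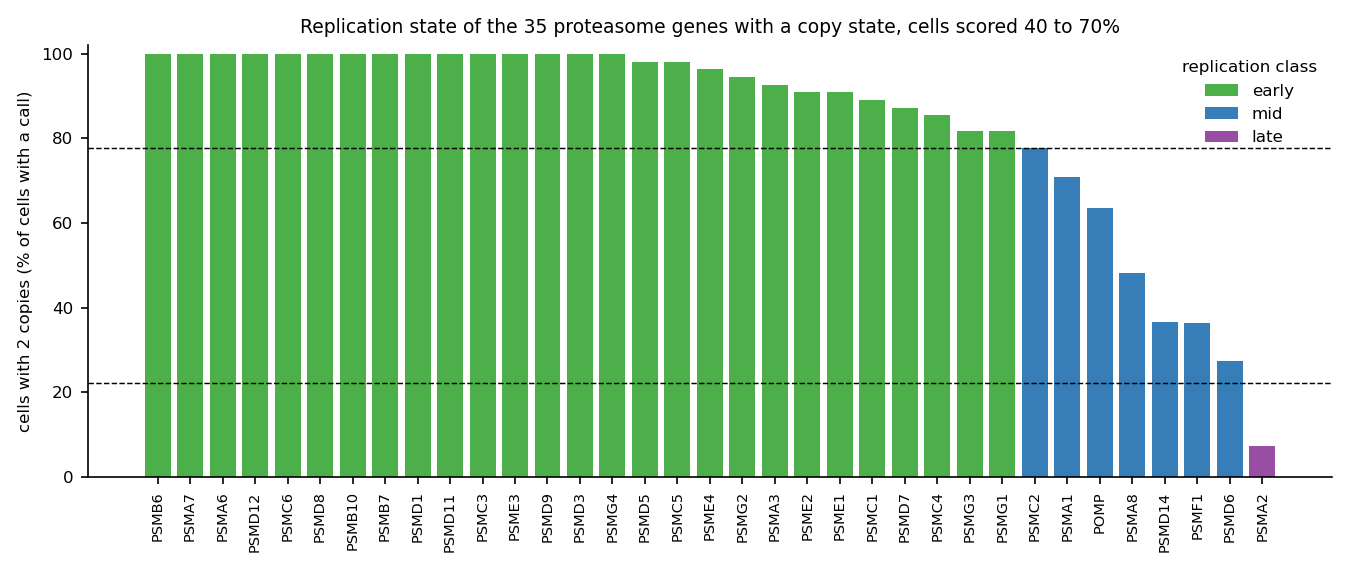
Percent of cells with 2 copies among cells with a call, for the 35 proteasome genes with a copy state, in 55 cells scored 40 to 70%. Bars are coloured by replication class and the dashed lines mark its limits; most bars stand near 100%, and PSMA2 stands lowest at 7.27%.

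The mid members allow the level of a gene to be compared between cells that had replicated it and cells that had not. The test was the two-sided Wilcoxon rank-sum test on all genes with both states, and cells are its unit, so p-values cover the spread between cells of 1 experiment. Of 2663 genes tested on spliced RNA, 5.75% were higher and 2.52% lower in 2-copy cells at an unadjusted p under 0.05, and 0% passed after Benjamini-Hochberg adjustment. Of the 6 proteasome genes 1, PSMC2, reached that unadjusted level and 0 passed after adjustment. The mean log2 difference was above 0 for all 6 and for 57.3% of the 2663 genes, with a median of 0.38 against 0.07.

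PSMC2 (chr7:103328570-103370346), an ATPase of the base, ran from 20.0 to 210.4 TPM in 42 cells with 2 copies (median 97.1 TPM). In 12 cells with 1 copy it ran from 9.01 to 120.2 TPM (median 70.1 TPM). The groups overlapped, and the difference on the log2(TPM + 1) scale was 0.59 ± 0.31 (SE; permutation p = 0.0220, adjusted Wilcoxon p = 0.507). The 2-copy median was higher in the first set (99.9 against 67.0 TPM) and in the second (96.1 against 70.6 TPM), where 7 and 5 cells had 1 copy. With the score regressed out the unadjusted p rose above 0.05. PSMC2 also overlaps PMPCB and DNAJC2, whose RNA was detected.

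POMP (chr13:28659104-28678959) ran from 35.4 to 222.9 TPM in 35 cells with 2 copies (median 111.1 TPM) and from 15.6 to 182.7 TPM in 20 with 1 copy (median 82.5 TPM). The difference was 0.44 ± 0.22 (SE; permutation p = 0.0522, adjusted Wilcoxon p = 0.604). It was wide in the first set (102.4 against 51.8 TPM) and narrow in the second (115.5 against 102.8 TPM). PSMF1 (chr20:1113240-1189415), a proteasome inhibitor, had medians of 107.7 TPM in 20 cells with 2 copies and 85.4 TPM in 35 with 1 copy, a difference of 0.41 ± 0.22 (SE; permutation p = 0.165). The groups overlapped for both genes, and neither passed after adjustment. The unadjusted Wilcoxon p of POMP was 0.0532 in all cells tested, 0.0365 with the mean of the set removed, 0.0471 without mitochondrial genes, 0.0105 in cells scored 45 to 65% and 0.159 with the score regressed out, with adjusted p-values from 0.531 to 0.860.

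The remaining genes differed less between states. PSMD14 (chr2:161308425-161411717) had medians of 86 and 79.1 TPM in 19 and 33 cells with 2 copies and 1 copy (0.34 ± 0.27, SE; permutation p = 0.396). PSMD6 (chr3:64010550-64024010), a lid subunit, had 74.5 and 67.3 TPM in 15 and 40 cells (0.17 ± 0.21, SE; permutation p = 0.428). PSMA1 (chr11:14504874-14643635), an α-ring subunit, had 213.6 and 218.6 TPM in 39 and 16 cells (0.09 ± 0.20, SE; permutation p = 0.818). The 95% interval of the PSMA1 difference ran from -0.29 to 0.48, and so ended below 1, which on this scale is a doubling of spliced TPM. These intervals cover the spread of spliced levels between cells of 1 experiment. Whether transcription of a gene follows its copy number was not tested by them. The intervals of POMP (0.00 to 0.87), PSMF1 (-0.02 to 0.84), PSMD14 (-0.18 to 0.87) and PSMD6 (-0.24 to 0.59) also ended below 1, while that of PSMC2 (-0.03 to 1.21) did not.

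**Figure D4:**
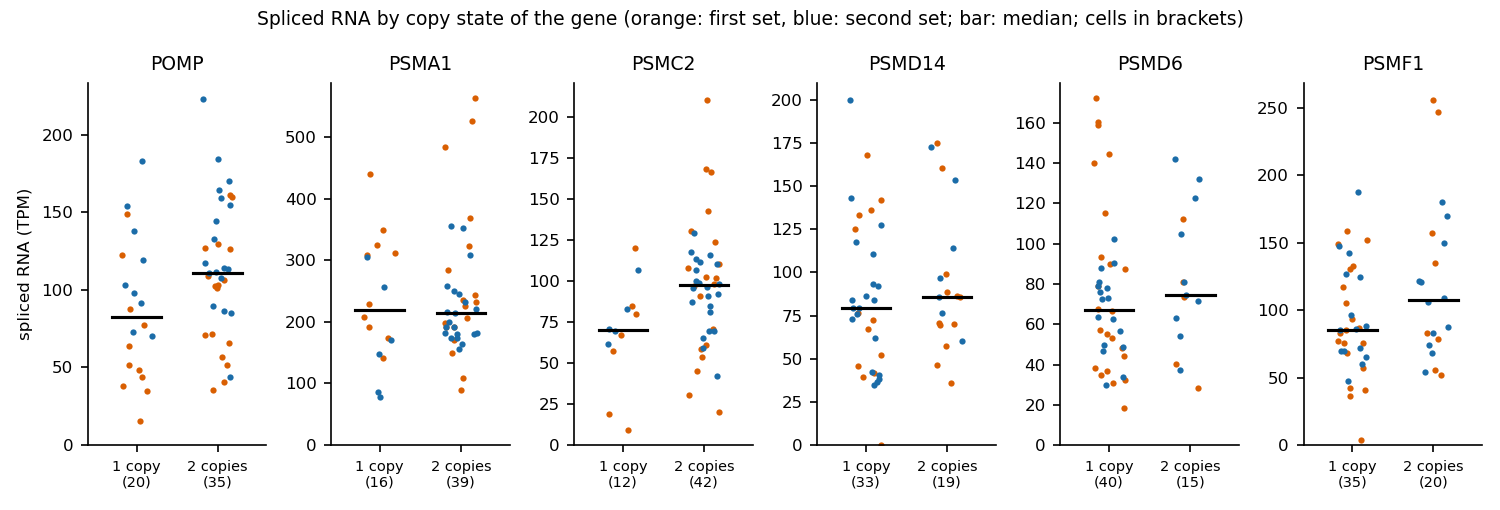
Spliced RNA in TPM of the 6 tested proteasome genes by copy state of the gene, with 1 point per cell, a bar at the median and the number of cells in brackets; orange marks the first set and blue the second. The 1-copy and 2-copy cells overlap in every panel, and the bars differ most for POMP, PSMC2 and PSMF1.

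Unspliced RNA, the reads of a gene body outside exons, was low for most of the family. Its unit is uncertain, and the values are called counts here because their totals differ between cells. Its median was 0 to 2 counts for 28 of the 35 genes with a value and above 20 for PSMA8, PSMG2, PSMG4, PSMB7, PSMD14, PSMA1 and PSMF1. These 35 genes together made up 0.0766 to 0.379% of the unspliced counts of a cell (median 0.207%). The highest medians were those of PSMA8, PSMG2 and PSMG4, which all overlap other detected genes, so this share may hold reads of those genes. Of 3397 genes tested for copy state on unspliced RNA, 6.59% reached an unadjusted p under 0.05 and 0% passed after adjustment in the Wilcoxon test. Of the 4 proteasome genes tested, PSMA1, PSMA8, PSMD14 and PSMF1, 0 reached either level. edgeR's quasi-likelihood test on the same values called 175 genes over the whole table and 0 of these 4. With only 4 members tested, a count of 0 says little about the family. PSMD14 had medians of 78.2 counts with 2 copies and 77.2 counts with 1 copy (19 and 33 cells; permutation p = 0.712). PSMF1 had 14.9 and 31 counts (20 and 35 cells; permutation p = 0.250), and PSMA1 40.6 and 92.9 counts (39 and 16 cells; permutation p = 0.796). The log2 difference of PSMA1 had an SE of 1.17, so its interval holds both a doubling and a loss of more than that size.

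PSMA8 (chr18:26133852-26193355) was unusual, since its exons were listed at 0 in every cell and its unspliced value was 165.2 to 772.8 counts, the highest median (350.5 counts) of the family. Reads of overlapping genes and of near-identical copies can enter such a value, so it is uncertain and may not be that of PSMA8 itself. By copy state it had medians of 373.4 counts with 2 copies and 350.4 counts with 1 copy (25 and 27 cells; permutation p = 0.240). The first set had 235.5 and 329.9 counts and the second 545.7 and 430.8 counts. The order of the states was opposite in the sets for the other 3 genes too. PSMA1 had 62.65 and 4.05 counts in the first set and 2.8 and 219.5 in the second, PSMD14 had 175 and 89.5 and then 58.75 and 75.6, and PSMF1 had 77.05 and 48.2 and then 14.95 and 19.5 counts.

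No proteasome gene was called over the range of S-phase sampled. Almost no gene of the whole table was called either, so this does not show that proteasome levels stayed constant. For progression, an additive model (mgcv) was fitted to log10(TPM + 1) with the replication score as a smooth term. Of 17132 genes tested, 10.4% reached an unadjusted p under 0.05, and 0.0409%, or 7 genes, passed after adjustment. Of 46 proteasome genes tested, 2 reached an unadjusted p under 0.05 and 0 passed after adjustment. The median rho with the score was 0.10 over the 46 genes and 0.00 over all genes, and 29 of 46 were above 0, against 50.99% of all genes.

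The 2 lowest p-values belonged to PSMC5 and PSMC1, ATPases of the 19S base. The remaining ATPases of the base had unadjusted mgcv p-values from 0.150 (PSMC4) to 0.462 (PSMC6). PSMC5 (chr17:63827152-63832026) had a median of 98.2 TPM in the 19 cells with the lowest scores (39.7 to 49.6%), 148.3 TPM in the middle 18 and 148.7 TPM in the 19 with the highest (56.7 to 67.2%). Its model gave p = 0.0123 and an adjusted p of 0.358 (mgcv), with a rho of 0.41 in the first set and 0.22 in the second. PSMC1 had 91.7, 81.4 and 118.3 TPM (mgcv p = 0.0350, adjusted 0.442), and with the set as a term its p was 0.201. The other 4 genes with the lowest p were PSME1, PSMB4, PSMG3 and POMP, with unadjusted mgcv p-values from 0.0530 to 0.0977. With the set as a term PSMB4 had p = 0.0215 (mgcv, adjusted 0.625). PSMB4 and PSMG3 went the other way, with 563.0, 541.0 and 518.1 TPM for PSMB4 and 52.1, 46.5 and 32.9 TPM for PSMG3. The first set gave 13 of the 19 cells with the lowest scores and 6 of the 19 with the highest.

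The library sets were compared in the same way. They are split by cell number, not by a labelled batch, and the split was chosen with earlier results of these data known. Some difference in RNA between the sets was therefore likely beforehand, and the p-values describe this split only. Cells are the unit of these p-values, and the cause of a difference was not tested. Of 17132 genes tested with the Wilcoxon rank-sum test, 3.67% were higher and 4.31% lower in the second set after adjustment. Of 46 proteasome genes, 4 were higher and 0 lower, or 8.7% called, near the 7.98% of all genes. PSMB7 ran from 53 to 473.4 TPM in the first set (median 223.5 TPM) and from 239.2 to 461.4 TPM in the second (median 354.9 TPM), a log2 difference of 0.58 ± 0.13 (SE; adjusted Wilcoxon p = 0.00634). The highest cells of both sets were alike, and the low cells of PSMB7 were in the first set. POMP rose from 77.5 to 113.9 TPM (0.65 ± 0.18, SE; adjusted Wilcoxon p = 0.0288), PSMA4 from 460.0 to 619.1 TPM (0.41 ± 0.11, SE; adjusted p = 0.0132) and PSMA6 from 221.6 to 285.8 TPM (0.42 ± 0.12, SE; adjusted p = 0.0229).

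With TPM rescaled without mitochondrial genes the log2 differences were 0.47 for PSMB7, 0.53 for POMP, 0.29 for PSMA4 and 0.30 for PSMA6, with adjusted Wilcoxon p-values from 0.0604 to 0.0863. On that scale 1494 of 17110 genes in all were called after adjustment. Of 46 proteasome genes, 0 were higher in the second set and 2 were lower, PSMD2 (adjusted Wilcoxon p = 0.0294) and PSME2 (adjusted Wilcoxon p = 0.0446). As deposited, PSMD2 had medians of 228.5 TPM in the first set and 187.3 TPM in the second, and PSME2 had 141.0 and 113.3 TPM. The mean was higher in the second set for 35 of 46 proteasome genes as deposited and for 27 of 46 without mitochondrial genes, against 50.4% and 45.5% of all genes. The share of called genes that were higher in the second set moved from 46.0% to 29.3% over the whole table with that scaling, and to 63% when the median of each cell was removed. That last scaling called 9 of 46 proteasome genes, against 1573 of 17132 genes in all. The 9 were the 4 above with PSMC1, PSMD8, PSME1, PSMG1 and PSMG2. With the replication score regressed out, 0 of the 4 calls held. The calls over all genes in that setting are not given here, so this 0 is not a result about the proteasome genes alone.

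Over 5 lists of the wider pathway, 7 of 47 genes tested were called between the sets, or 14.9%, against 7.98% of all genes. Of 5 ubiquitin and E1 genes tested, 3 were higher in the second set, among them RPS27A (1940 to 2717 TPM). UBB, a polyubiquitin gene, was listed at 0 in most cells and above 0 in 11. Of 10 proteasome-bound proteins outside the family, 1 was higher, the lid component SEM1 (136.2 to 211.5 TPM). Of 10 shuttle and unfoldase genes, 1 was higher, RAD23B, which carries ubiquitinated proteins to the proteasome (44.6 to 68.7 TPM). Of 10 transcription factors and regulators of proteasome genes, 1 was lower, MAFK (6.04 to 1.01 TPM), a partner of NFE2L1, which itself had a median of 45.5 TPM over all cells. Of 12 interferon and antigen-processing genes, 1 was higher, B2M (335.3 to 460.6 TPM), and none of the inducible proteasome genes in that list was called. In the progression model 0 genes of these 5 lists passed after adjustment, and 5 of 47 (10.6%, against 10.4% of all genes) reached an unadjusted p under 0.05: ADRM1, a ubiquitin receptor, NFYB, RPS27A, UBA6 and ISG15.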

How the data were processed

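Single mid-S HAP1 cells had been processed by scRR-seq. Per the labels and the methods, the authors mapped DNA reads with BWA 0.7.17-r1188 to hg38, called 40-kb bins as replicated or not, and averaged the bins of a gene into a copy state; the deposited score is 1 (2-copy), -1 (1-copy) or 0 (no call). The authors made the deposited TPM values from reads counted over exons of GENCODE genes, and the spliced table held the same values. The deposited unspliced values, gene-body reads outside exons with negative values set to 0, were titled TPM but were taken for expected counts here, since totals differ between cells. The highest totals pass the size to which the authors downsampled the libraries, so the unit is uncertain. The unspliced total of a cell is the sum of these values and was not taken for sequencing depth. Gene lengths in the tables are spans. The strand setting of the counting was not known from the sources used.

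A DNA and an RNA library that share a cell number were taken as the same cell. Copy state was tested with the Wilcoxon rank-sum test (SciPy 1.17.1) in 55 cells scored 40 to 70%, for genes detected in over 50% of cells and called in at least 50%, with neither state in over 80% and at least 3 cells in each. Progression and set tests took genes that reached 1 TPM in 20% or more of cells (mgcv 1.9.3; edgeR 4.0.16 on rounded unspliced counts was an alternative). P-values were adjusted by Benjamini-Hochberg over all genes tested. Permutation p-values used 100000 draws of the rank sum, two-sided. Differences are means of log2(value + 1), which understates the change of low genes. Intervals are 1.96 SE. Exonic lengths came from GENCODE v44. Named were the highest and lowest member of each subcomplex by median TPM, PSMB5 to PSMB10, every member tested for copy state, the 6 lowest p in the progression model, members called between sets, the 10 genes most like the members, and up to 3 genes per pathway list; PSMA2, PSMA3, PSMA7, PSMD2, PSME2 and others named for a role or an extreme were chosen after their values were seen. Members, lists and the split of cells into library sets were chosen with earlier results of these data known. Some genes are not reported here. Scripts were tested on simulated data.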

Additional observations from a re-analysis of the deposited data

How the results depend on the processing

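No adjusted call was made for any proteasome gene in the copy-state or progression tests, and this held under every alternative run for them. At an unadjusted p under 0.05 the copy-state test on spliced RNA gave 1 member, 0 on residuals of the replication score, 2 with values less the mean of the library set and 2 with TPM rescaled without mitochondrial genes. Between library sets there were 4 adjusted calls. With TPM rescaled without mitochondrial genes 0 of these 4 held. On that scale 1494 genes were called over the whole table, and 2 other proteasome genes, PSMD2 and PSME2, were called lower in the second set. With the median of the cell removed there were 9 calls, against 1573 over the whole table. There were 0 on residuals of the replication score and 0 in cells scored 45 to 65%, where the calls over all genes are not given here. The cause was not tested. The median CV of the members was 42.1% over all cells, 47.9% in the first set and 34.5% in the second, an alternative chosen after seeing the data. Of 116 comparisons of a named gene with an alternative, 12 kept the direction only, 3 turned and the rest kept the direction and the side of the threshold. The 3 were unspliced values, PSMA1 on score residuals and on values less the set mean (adjusted p of 1 in both) and PSMD14 in cells scored 45 to 65% (adjusted p = 0.962). Over the whole table, the Wilcoxon test on unspliced RNA called 0 genes after adjustment and edgeR called 175 with TMM and 178 with RLE factors; the progression model called 7 genes, and 26 with no filter beyond a value above 0 in 3 cells. No paired analysis was possible because the DNA and RNA libraries that share a number are the 2 measurements of 1 cell, and no test compares those groups. Precision is limited by 1 experiment, by unspliced values near 0 for most members, and by as few as 12 cells in a copy state.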
